A study of Homo sapiens with 6 samples.

Results

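Fatty acid oxidation enzymes and the peroxisome proliferator-activated receptors (PPARs) that control them were examined as 9 genes taken by symbol from a table of 33900 genes. They were CPT1A and CPT2 of the carnitine shuttle, the beta-oxidation enzymes ACADVL, ACADM, HADHA and HADHB, the nuclear receptors PPARA and PPARD, and the coactivator PPARGC1A. The measurements were mRNA sequencing of LX-2 cells, an established human hepatic stellate cell line, given by its labels as wild type. 3 samples received recombinant human Semaphorin 3C (rhSema3C) at 300 ng/ml for 48 h and 3 received PBS for the same time, all grown in DMEM with fetal bovine serum. LX-2 is a single line, so the samples are labelled biological replicates of that line and p-values measure only the spread between these 6 samples. The comparison asked how rhSema3C changed transcript levels, and here whether genes of fatty acid breakdown moved in the direction opposite to genes of fatty acid synthesis.

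Long-chain fatty acids are activated to acyl-CoA and enter mitochondria through the carnitine shuttle, where beta-oxidation then shortens them step by step to acetyl-CoA. Malonyl-CoA, the product of the acetyl-CoA carboxylases that begin fatty acid synthesis, inhibits CPT1A, so synthesis and breakdown are linked at this step. PPARA and PPARD bind DNA as heterodimers with retinoid X receptors and switch on oxidation genes in response to fatty acids. Hepatic stellate cells store lipid droplets when quiescent and lose them when they become activated myofibroblasts.

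Libraries held 68267808 to 89245585 counts, and 14178 genes with a mean level of 0.5 FPKM or more (fragments relative to transcript length and library size) over the 6 samples were tested. Of these, 62.3% passed an adjusted p of 0.05 in either direction, 31.7% higher and 30.6% lower with rhSema3C. Mitochondrial genes took 4.75% to 5.42% of counts with PBS and 3.73% to 3.93% with rhSema3C, and the part of this difference in the results was not tested. The stellate markers COL1A1, COL3A1, ACTA2 and VIM were expressed, but COL1A2 (mean 0.109 FPKM) and LRAT were near 0, so the label was met by part of its markers. The 8 stellate markers summed to 1146 to 1206 FPKM with PBS and 908.5 to 968.4 FPKM with rhSema3C, with 4 of 5 tested markers lower. FPKM of all genes also summed lower with rhSema3C, so sums of marker FPKM are not on a common total. The 5 macrophage and leukocyte markers summed to 95.03 to 103.7 FPKM with PBS and 67.2 to 73.0 FPKM with rhSema3C, from CD68 and CD14 with PTPRC near 0. Hepatocyte, endothelial, epithelial and adipocyte markers each summed to at most 4.18 FPKM in any sample, with ALB near 0. The part of these markers in the results was not tested, and in bulk RNA fewer cells of a type and less RNA per cell cannot be told apart.

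HADHA and HADHB, which encode the alpha and beta subunits of the mitochondrial trifunctional protein, lie head to head on chromosome 2. Their start sites in RefSeq (GRCh38.p14) are 306 bases apart, and 194 bases between them are shown because the same bases lie upstream of both genes (chr2:26244689-26244882, plus strand, 68.6% GC, 14 CpG). The promoters of CPT1A, which had the largest fall (chr11:68844278-68844527, minus strand, 44.4% GC, 7 CpG), and ACADM, which had the largest difference in the other direction (chr1:75724459-75724708, plus strand, 70.8% GC, 25 CpG), are shown beside it. The bounds of CPT1A in the deposited table stop at 68841931, short of its RefSeq start site at 68844277. Those of ACADM begin at 75724347, before its RefSeq start site at 75724709.
HADHA and HADHB, shared stretch: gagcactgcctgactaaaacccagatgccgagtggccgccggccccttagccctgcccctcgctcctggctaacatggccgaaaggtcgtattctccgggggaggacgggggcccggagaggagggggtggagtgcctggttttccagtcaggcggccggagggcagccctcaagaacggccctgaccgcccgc
CPT1A: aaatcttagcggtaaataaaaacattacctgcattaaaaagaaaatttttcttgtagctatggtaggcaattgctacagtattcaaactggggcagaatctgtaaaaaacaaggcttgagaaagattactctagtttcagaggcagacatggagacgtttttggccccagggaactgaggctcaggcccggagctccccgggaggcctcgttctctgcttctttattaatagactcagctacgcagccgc
ACADM: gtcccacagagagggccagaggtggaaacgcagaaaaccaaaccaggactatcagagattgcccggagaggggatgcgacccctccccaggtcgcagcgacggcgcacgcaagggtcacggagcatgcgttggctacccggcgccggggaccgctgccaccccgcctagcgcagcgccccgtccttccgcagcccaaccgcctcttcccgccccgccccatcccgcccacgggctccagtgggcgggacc
All letters are in lower case because no searched motif was found in them. The searched letters were the nuclear receptor hexamer AGGTCA, its direct repeat with any 1 base between the copies, the extended element TNAAGGTCA and the sterol element TCACNCCAC, on both strands, where the hexamer also lies inside the repeat and the extended element. None of the 12 windows of 300 bases at the start sites of the 9 genes held any of them. Among all 35116 RefSeq windows of that length the shares were 13.8% for AGGTCA, 0.0228% for the repeat, 0.951% for TNAAGGTCA and 1.13% for TCACNCCAC. An absent match says only that these letters are not in these windows.

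8 of the 9 genes were tested, and 5 were lower with rhSema3C, 0 were higher and 3 did not pass. The 5 calls, 62.5% of those tested, are a share near the 62.3% called among all genes in either direction, whereas 30.6% of all genes were called lower. This count depends on the scaling: with TPM (FPKM rescaled to the same sum in every sample) 2 were called lower and 3 higher, and with library size alone 2 were called higher. Without overlap between the groups were 6 genes on the lower side and 1 on the higher side, beside 33.3% and 34.6% of all genes tested, or 67.8% in either direction. None changed by more than 2-fold, a size that 5.54% of all genes passed together with p.

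CPT1A (ENSG00000110090, chr11:68754620-68841931) attaches long-chain fatty acids to carnitine at the outer mitochondrial membrane and is the controlled entry step of oxidation. CPT1A measured 109.1, 129.1 and 121.6 CPM (counts scaled to library size, adjusted by TMM, the trimmed mean of M-values) with PBS and 89.1, 74.9 and 82.6 CPM with rhSema3C. All rhSema3C samples lay below all PBS samples. Its mean fell from 119.9 ± 10.1 to 82.2 ± 7.08 CPM (SD, n = 3 each), a log2 fold change of -0.54 (SE 0.072, 95% CI -0.70 to -0.39, adjusted p = 5.6e-05 by edgeR's quasi-likelihood test) or -31.5%. CPT1A was past the threshold in all 17 settings of scaling, filter, test and samples, with a log2 fold change from -0.61 to -0.31. 73.6% of all genes tested had a smaller absolute log2 fold change.

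CPT2 (ENSG00000157184, chr1:53196792-53214197) returns the acyl group to CoA inside the mitochondrion. It measured 25.1, 21.2 and 27.0 CPM with PBS and 19.6, 15.8 and 18.0 CPM with rhSema3C, and the groups did not overlap. CPT2 fell from 24.4 ± 2.92 to 17.8 ± 1.90 CPM (SD, n = 3), a log2 fold change of -0.46 (SE 0.11, 95% CI -0.70 to -0.22, edgeR adjusted p = 0.0032). On TPM the difference was -0.20 (limma adjusted p = 0.14), and after removal of trends with GC content and transcript length from each library it was -0.76. CPT2 overlaps CZIB on the other strand by 99 bases, and CZIB held 161% as many counts and had a log2 fold change of 0.31. Whether the counting used strand is not given in the sources used here. The ratio of CPT1A to CPT2 in FPKM was 7.66 ± 1.47 with PBS and 7.12 ± 0.154 with rhSema3C, with overlapping values.

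ACADVL (ENSG00000072778, chr17:7217125-7225266), the dehydrogenase for very long-chain acyl-CoA, had the smallest SE relative to its log2 fold change among the 8 tested genes. It measured 229.9, 225.9 and 223.6 CPM with PBS and 166.5, 171.1 and 166.2 CPM with rhSema3C. All rhSema3C samples lay below all PBS samples, and values within each group lay close together. ACADVL fell from 226.5 ± 3.19 to 167.9 ± 2.77 CPM (SD, n = 3), a log2 fold change of -0.43 (SE 0.038, 95% CI -0.52 to -0.35, edgeR adjusted p = 2.5e-06) or -25.8%, and it passed in all 17 settings (-0.44 to -0.14), with the smallest fall, -0.14, after removal of GC and length trends. ACADVL overlaps DLG4 on the other strand by 2712 bases, and DLG4 held 17.1% as many counts.

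ACADM (ENSG00000117054, chr1:75724347-75763679), the medium-chain dehydrogenase, had a positive difference in the TMM fit, where the other 5 enzymes were below 0, but HADHB was also above 0 on TPM and with library size alone and HADHA on TPM. It measured 23.9, 23.1 and 24.5 CPM with PBS and 25.9, 30.8 and 25.5 CPM with rhSema3C. The groups did not overlap, with rhSema3C replicate 2 standing highest. The log2 fold change was 0.20 (SE 0.084, 95% CI 0.016 to 0.39, edgeR adjusted p = 0.057), so it did not pass. ACADM passed in 6 of 17 settings, among them library size alone (0.31), TPM (0.40) and the fit without rhSema3C replicate 1 (0.24). It was 0.11 without rhSema3C replicate 2 and -0.071 after removal of GC and length trends, neither passing. Within each sample the ratio of ACADVL to ACADM in FPKM was 9.45 ± 0.345 with PBS and 6.13 ± 0.527 with rhSema3C, 1.55-fold lower without overlap (exact permutation p = 0.1, two-sided, the smallest for 3 against 3, and 0.13 adjusted over the 8 ratios computed). The difference between both genes in log2 fold change was -0.63 in the TMM fit and -0.070 after removal of GC and length trends, so most of it was absent there.

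HADHA (ENSG00000084754, chr2:26190635-26244632) carries the hydratase and long-chain hydroxyacyl-CoA dehydrogenase activities of the trifunctional protein. It measured 300.8, 290.1 and 266.3 CPM with PBS and 253.4, 243.7 and 249.9 CPM with rhSema3C. The groups did not overlap on this scale, though in FPKM PBS replicate 3 (57.9) lay inside the rhSema3C range of 56.6 to 58.7. HADHA fell from 285.7 ± 17.6 to 249.0 ± 4.92 CPM (SD, n = 3), a log2 fold change of -0.20 (SE 0.049, 95% CI -0.31 to -0.090, edgeR adjusted p = 0.0044), which turned to 0.030 on TPM and did not pass with library size alone (-0.089). After removal of GC and length trends it was -0.13.

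HADHB (ENSG00000138029, chr2:26243170-26290464) carries the thiolase activity. It measured 114.6, 115.4 and 115.2 CPM with PBS and 111.6, 110.4 and 104.8 CPM with rhSema3C. The groups did not overlap, yet the difference was small, with a log2 fold change of -0.079 (SE 0.041, 95% CI -0.17 to 0.011, edgeR adjusted p = 0.11) that turned to 0.029 with library size alone and to 0.15 on TPM. It passed on TPM as higher and, after removal of GC and length trends, as lower (-0.27). The ratio of HADHA to HADHB in FPKM was 2.45 ± 0.157 with PBS and 2.26 ± 0.0894 with rhSema3C with overlapping values (exact permutation p = 0.2, two-sided, 0.23 adjusted over the 8 ratios). By the gene bounds of the deposited table, HADHA and HADHB overlap on opposite strands by 1463 bases, and HADHA held 238% as many counts as HADHB. There HADHB begins at 26243170, before its RefSeq start site at 26244939, while HADHA begins at its RefSeq start site.

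**Figure D1:**
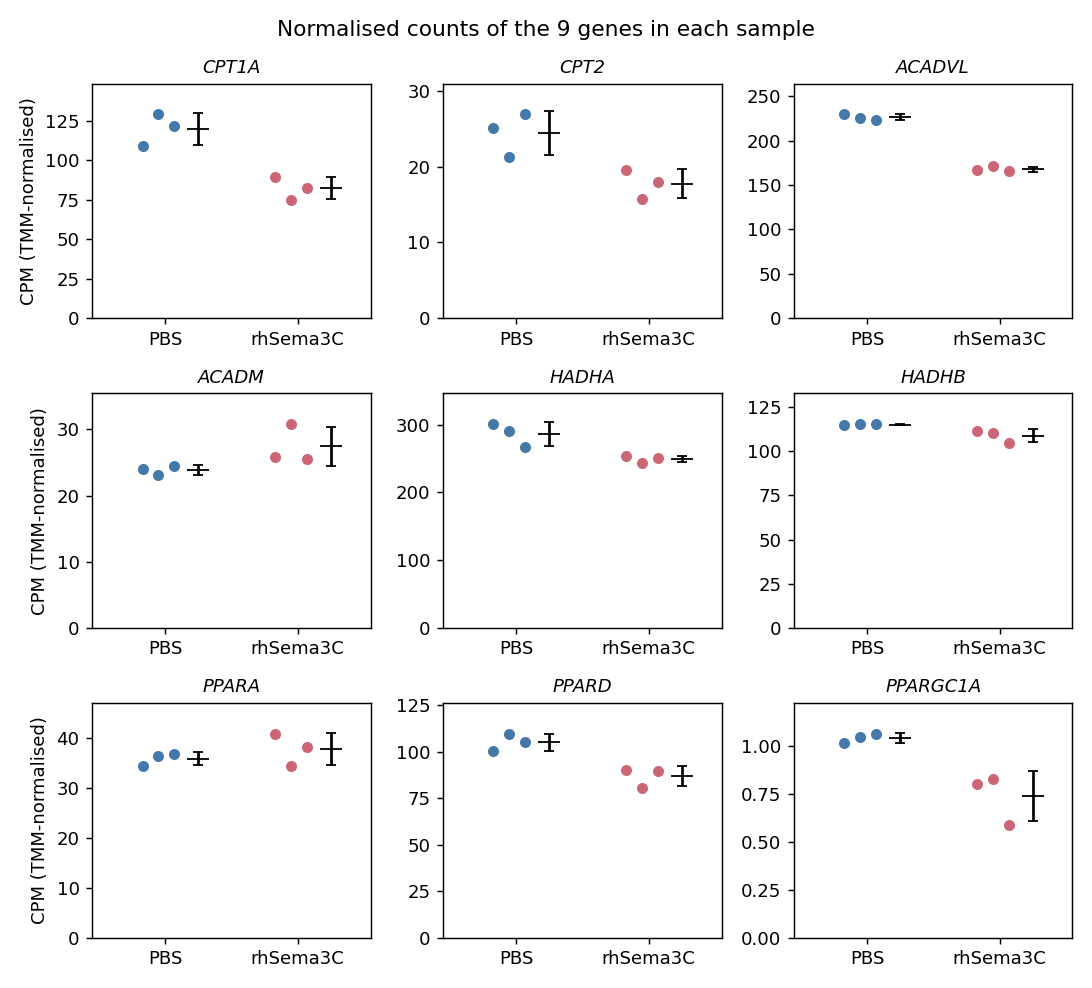
TMM-scaled CPM (vertical axes, linear) of the 9 genes in 3 PBS and 3 rhSema3C samples, each point a sample and each bar the mean with its SD. CPT1A, CPT2, ACADVL, HADHA and PPARD sit lower with rhSema3C and passed the test, ACADM sits higher without passing, and PPARA overlaps.

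Among the regulators, PPARD was lower and PPARA was not separated. PPARD (ENSG00000112033, chr6:35342558-35428191), a receptor found in most tissues, measured 100.3, 109.6 and 105.1 CPM with PBS and 90.4, 80.6 and 89.8 CPM with rhSema3C. The groups did not overlap. PPARD fell from 105.0 ± 4.65 to 87.0 ± 5.48 CPM (SD, n = 3), a log2 fold change of -0.27 (SE 0.055, 95% CI -0.39 to -0.15, edgeR adjusted p = 0.0012), but it was -0.046 on TPM (limma adjusted p = 0.54) and 0.027 after removal of GC and length trends. PPARA (ENSG00000186951, chr22:46150521-46243755), the main receptor for oxidation genes in liver, measured 34.3, 36.4 and 36.7 CPM with PBS and 40.8, 34.4 and 38.1 CPM with rhSema3C. These values overlapped, and the log2 fold change was 0.077 (SE 0.073, 95% CI -0.084 to 0.24, edgeR adjusted p = 0.38). PPARA passed as higher with library size alone (0.19) and on TPM (0.27), and it ranged from 0.015 without rhSema3C replicate 1 to 0.14 without rhSema3C replicate 2, passing in neither. The ratio of PPARD to PPARA in FPKM was 8.71 ± 0.222 with PBS and 6.85 ± 0.230 with rhSema3C, 1.27-fold lower without overlap (exact permutation p = 0.1, two-sided, 0.13 adjusted over the 8 ratios). The difference between both receptors in log2 fold change was -0.35 in the TMM fit and -0.0019 after removal of GC and length trends, where PPARD was 0.027 and PPARA 0.029.

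PPARGC1A (ENSG00000109819, chr4:23755041-23904089), a coactivator that drives mitochondrial biogenesis and oxidation genes, was close to undetected and was not tested. It had 87, 73 and 70 reads counted with PBS and 69, 76 and 49 with rhSema3C, or 0.0883 ± 0.00196 and 0.0679 ± 0.0116 FPKM (SD, n = 3). In a fit without the filter on low genes its log2 fold change was -0.51 (SE 0.27, 95% CI -1.11 to 0.10, edgeR adjusted p = 0.24).

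Per length, the levels in both groups ran from HADHA (61.9 ± 3.71 FPKM with PBS) through ACADVL (44.0 ± 0.656), HADHB (25.2 ± 0.127), PPARD (22.1 ± 0.891), CPT1A (17.1 ± 1.38), ACADM (4.66 ± 0.168), PPARA (2.54 ± 0.0904) and CPT2 (2.27 ± 0.284) to PPARGC1A. Only PPARA and CPT2 overlapped with PBS, and with rhSema3C no neighbours did. The 6 enzymes summed to 155.2 ± 3.16 FPKM with PBS and 138.7 ± 1.63 FPKM with rhSema3C (SD, n = 3), a sum led by HADHA and ACADVL. FPKM of all genes also summed lower with rhSema3C (265983 to 268533) than with PBS (288169 to 297339). The enzyme sums are therefore not on a common total, and their difference was not tested.

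The scaling of the libraries shifted these genes together. The median log2 fold change of all genes tested was 0.024 in the TMM fit, and it was 0.11 higher with library size alone and 0.20 higher on TPM. Less that median, and taken over these 3 scalings and the median-of-ratios factors, CPT1A was at -0.57 to -0.54, CPT2 at -0.48 to -0.43, ACADVL at -0.46 to -0.43, PPARD at -0.30 to -0.27, HADHA at -0.22 to -0.20 and HADHB at -0.10 to -0.082. On this relative scale ACADM was at 0.18 and PPARA at 0.046 to 0.053.

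**Figure D2:**
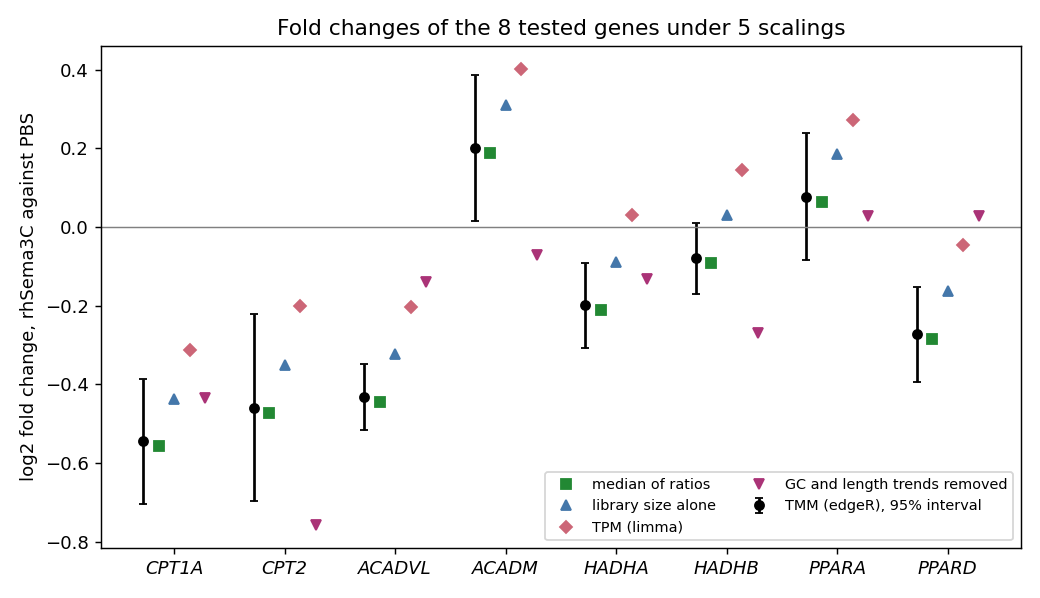
Log2 fold change (rhSema3C minus PBS, vertical axis) of the 8 tested genes under TMM with its 95% confidence interval, median-of-ratios, library size alone, TPM, and with GC and length trends removed. CPT1A, CPT2 and ACADVL stay below 0 throughout, while HADHA crosses 0 on TPM, HADHB crosses 0 on TPM and with library size alone, and ACADM and PPARD cross 0 without the GC and length trends.

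The rest of the oxidation pathway held calls in both directions, as did all genes tested, of which 31.7% were higher and 30.6% lower. Apart from fatty acid synthesis, 28.6% to 40% of each related list were called higher and 20% to 44.4% lower, around those shares. Of 16 tested genes of fatty acid uptake, activation and the carnitine system, 6 were higher, 4 were lower and 6 did not pass, with a median log2 fold change of 0.19 against 0.024 for all genes. Log2 fold changes of all these lists come from the TMM fit of counts, so they are not on the scale of the FPKM levels printed beside them. SLC25A20, the carrier that exchanges acylcarnitine for carnitine between CPT1A and CPT2, fell from 9.95 ± 0.667 to 6.05 ± 0.116 FPKM (log2 fold change -0.82 in the TMM fit, SE 0.088). SLC27A4, a fatty acid transport protein, fell by 0.75 on the log2 scale. ACSL3, a ligase that activates fatty acids and acts at lipid droplets, rose from 12.7 ± 0.835 to 38.1 ± 1.35 FPKM (1.48, SE 0.052). ACSL4 (0.45) and the acyl-CoA binding protein DBI (0.56) rose as well. CPT1B and CPT1C, named after their values were seen, lay far lower than the related CPT1A, at 0.770 and 0.580 FPKM with PBS. CPT1B was higher (0.51, SE 0.16), while CPT1C (0.17) did not pass.

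Of 15 other mitochondrial beta-oxidation and electron transfer genes, 5 were higher, 6 were lower and 4 did not pass, with a median of 0.12. ECHS1, the short-chain enoyl-CoA hydratase and the most abundant of them, fell from 136.7 ± 3.54 to 89.9 ± 0.896 FPKM (log2 fold change -0.71, SE 0.040). ACAD9, which also serves complex I assembly, fell by 0.51 on the log2 scale. ACAD11 (1.048, SE 0.095) and DECR1 (0.71, SE 0.10), a reductase for unsaturated fatty acids, rose. ECI2 was at -0.11 and did not pass, and its sign turned on TPM.

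Of 15 tested peroxisomal genes, 5 were higher, 3 were lower and 7 did not pass, with a median of -0.0070. The number higher was 3 without PBS replicate 3 and 2 without rhSema3C replicate 2. After removal of GC and length trends 1 was higher and 5 were lower, so not all of the rises named here held there. ACOX3 (-0.56), ACAA1 (-0.54) and ACOT8 (-0.51) fell, while PHYH (0.51), EHHADH (0.42) and HSD17B4 (0.29) rose. HACL1 was at -0.0070 without passing, and its sign depended on the scaling (-0.020 to 0.22). Of the 5 ketone body genes tested, 2 were higher, 1 was lower and 2 did not pass. ACAT1 (0.31) rose, OXCT1 (0.095) did not pass, and BDH1 was lower at -0.22 in the TMM fit with a change of sign on TPM, and no ketone gene was called lower without PBS replicate 2 or without rhSema3C replicate 1. Of the 9 lipolysis and lipid droplet genes tested, 3 were higher, 4 were lower and 2 did not pass. The droplet proteins HILPDA, an inhibitor of lipolysis (1.47, SE 0.063), and PLIN3 (-0.93, SE 0.041) moved in opposite directions. The monoglyceride lipase MGLL fell by 0.60 on the log2 scale and the lysosomal lipase LIPA rose by 0.92. G0S2, an inhibitor of adipose triglyceride lipase, was the most abundant of these at 962.7 ± 36.4 FPKM with PBS and was lower at -0.21, with a change of sign on TPM.

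Of 21 tested partners and regulators, 6 were higher, 9 were lower and 6 did not pass, with a median of -0.11. RXRA, a heterodimer partner of PPARA and PPARD, fell from 3.13 ± 0.188 to 2.37 ± 0.110 FPKM (log2 fold change -0.50, SE 0.071). RXRB, another such partner named after its values were seen, was more abundant and fell less, from 16.0 ± 0.919 to 14.8 ± 0.482 FPKM (-0.22, SE 0.055). LPIN1, a phosphatidate phosphatase that also acts as a PPAR coactivator, rose from 4.37 ± 0.218 to 8.99 ± 0.154 FPKM (0.94, SE 0.048). Of the AMP-activated kinase subunits PRKAB2 (0.82) and PRKAG1 (0.46) rose, PRKAB1, named after its values were seen, fell (-0.38) from a higher level than PRKAB2 (9.54 against 2.07 FPKM with PBS), and the catalytic subunit PRKAA1 (0.067) did not pass. Of the PPAR targets outside beta-oxidation 6 were under the filter on low genes, and of the 7 tested 2 were higher, 2 were lower and 3 did not pass. ANGPTL4 (0.79) and TXNIP (0.37) rose, and KLF10 (-0.66) and the mitochondrial carrier SLC25A34 (-1.10, SE 0.25) fell. SLC25A34 had a mean of 0.530 FPKM, near the filter, and its log2 fold change ran from -1.11 to -0.57 over the scalings. UCP2 was at -0.013 without passing, and its sign depended on the scaling (-0.026 to 0.21).

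Beside the oxidation genes, fatty acid synthesis moved almost wholly one way. Of 15 genes, 13 were higher, 1 was lower and 1 did not pass, with a median log2 fold change of 0.86. The share higher was 86.7%, beside 31.7% of all genes tested. The list was chosen with results of these samples known. FASN, the fatty acid synthase, rose from 36.5 ± 2.37 to 108.3 ± 6.16 FPKM (log2 fold change 1.47 in the TMM fit, SE 0.059). ACACA, an acetyl-CoA carboxylase that makes malonyl-CoA for synthesis, rose by 0.68 on the log2 scale, and malonyl-CoA itself was not measured. ACSS2 (1.86) and SCD (1.34) rose most among the other named genes, FADS2 (0.87) and ACLY (0.32) rose, and TECR fell by 0.42 on the log2 scale. The median of the 6 oxidation enzymes was -0.32, with 4 lower and 0 higher. Less the median of all genes, it was -0.34 to -0.31 over the 4 scalings against 0.82 to 0.84 for synthesis, although on TPM 2 of the 6 enzymes were called higher and 2 lower. It was -0.21 against 0.72 after removal of GC and length trends, and -0.092 against 0.97 with the filter at 5 FPKM, which left out CPT2.

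Ratios taken within each sample do not depend on how libraries are scaled, though they do depend on trends with GC content and length. CPT1A stood at 0.462, 0.481 and 0.462 times FASN in FPKM with PBS and at 0.120, 0.113 and 0.115 times with rhSema3C. The groups were widely apart, 4.03-fold lower with rhSema3C (exact permutation p = 0.1, two-sided, the smallest for 3 against 3, and 0.13 adjusted over the 8 ratios). CPT1A to ACACA was 1.62 ± 0.157 with PBS and 0.692 ± 0.0423 with rhSema3C, 2.34-fold lower. ACADVL to FASN was 3.73-fold lower and HADHA to FASN 3.17-fold lower, each without overlap and each with that same p. After removal of GC and length trends the log2 difference was -2.16 for CPT1A to FASN and -1.12 for CPT1A to ACACA, beside -2.01 and -1.23 in the TMM fit. Most of the size of these ratios came from FASN and ACACA, whose log2 changes exceeded those of the oxidation genes. FASN and ACACA were chosen with results of these samples known, and a gene without change would also stand lower against them. The p-values of these ratios therefore do not test whether breakdown opposed synthesis.

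**Figure D3:**
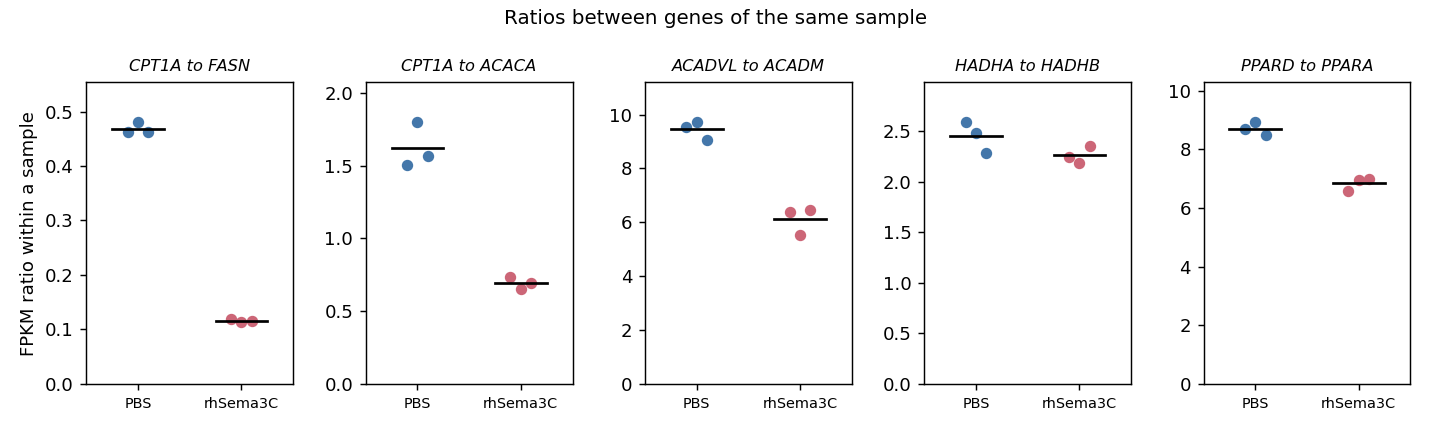
Within-sample FPKM ratios (vertical axes, linear, no unit) in 3 PBS and 3 rhSema3C samples, each point a sample with the group mean. CPT1A to FASN falls from about 0.468 to 0.116, and HADHA to HADHB overlaps between groups.

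Over the 6 samples, the genes whose log2 CPM followed CPT1A most closely among 6865 compared were PREX1 (Pearson r = 0.999), DPYSL4 (0.998) and PLOD1 (0.998). For HADHA they were MXRA7P1 (0.998), CCDC115 (0.990) and RPN1 (0.989). These values describe 6 points that fall into 2 treatment groups and share their libraries.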

How the data were processed

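RNA was sequenced from 3 rhSema3C and 3 PBS samples of LX-2. Unnormalised counts of reads and FPKM values (fragments relative to transcript length and library size) were deposited by the authors in 1 table, after NovaSeq sequencing and, per the study's methods, Cufflinks and cuffmerge. The aligner, the counter and its strand setting are not given in the sources used here. Gene coordinates were on GRCh38, with 19767 of 32887 genes at the same start and end as in GENCODE 29. The deposited counts were tested with edgeR 4.0.16 in R 4.3.3 (TMM factors, quasi-likelihood fit without covariates, Benjamini-Hochberg over the 14178 genes whose mean FPKM reached 0.5). Standard errors were the log2 fold change over the root of F, and intervals are 95%. Ratios within samples used FPKM and exact permutation tests. Alternatives used limma 3.58.1, DESeq2 1.42.0, other scalings and filters, left-out replicates, a replicate block and, chosen after seeing the data, removal of GC and length trends. The fits were tested on simulated data in which far fewer genes changed than were called here. That test does not cover the scaling of these libraries. The members and lists were chosen with earlier results of these data known. Genes named were all members and, from each list, the 3 most abundant and the 2 largest rises and falls past the threshold, with FASN and ACACA, and for CPT1A and HADHA the 3 most correlated genes (mean FPKM of 5 or more). Promoters came from RefSeq (GRCh38.p14). Some genes that this rule names are not reported here.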

Additional observations from a re-analysis of the deposited data

How the results depend on the processing

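CPT1A and ACADVL kept their direction and passed in every alternative run, and CPT2 did in every one that tested it except TPM. With library size alone, ACADM was 0.31, HADHA -0.089, HADHB 0.029 and PPARA 0.19 (log2 fold change, ACADM and PPARA passing), 2 of the 9 genes were higher, the ketone list had 4 higher and 0 lower, and the partners list had 5 lower. With TPM in limma, CPT2 was -0.20, ACADM 0.40, HADHA 0.030, HADHB 0.15, PPARA 0.27 and PPARD -0.046 (ACADM, HADHB and PPARA passing), with 6934 genes higher and 2428 lower among all tested, 3 higher and 2 lower among the 9 genes, 10 and 2 for uptake, 3 lower for other mitochondrial genes, 8 higher for peroxisomal genes, 4 and 0 for ketone genes, 2 lower for lipolysis, 3 lower for partners and 4 higher for PPAR targets. With limma on log2(FPKM + 1), ACADM was 0.25, HADHA -0.093 and HADHB 0.022, and with a pseudocount of 0.1 they were 0.29, -0.094 and 0.022, in both cases with 1 of the 9 genes higher, 0 ketone genes lower and 5 partners lower. Without the filter, 2 peroxisomal genes were higher. With a mean FPKM of at least 5, ACADM was 0.31, HADHA -0.093 and HADHB 0.026, CPT2 and PPARA were not tested, 2630 genes were higher and 2602 lower, and the counts were 1 higher and 3 lower for the 9 genes, 2 lower for uptake, 2 higher for other mitochondrial genes, 3 higher for peroxisomal genes, 0 lower for ketone genes, 4 lower for partners and 1 lower for PPAR targets. After removal of GC and length trends, chosen after seeing the data, ACADM was -0.071, HADHB -0.27 (passing), PPARD 0.027, CPT2 -0.76 and ACADVL -0.14, with 1 higher and 5 lower peroxisomal genes, 1 higher ketone gene and 3 higher partners. Rises were 50.9% of calls with TMM, 62.3% with library size alone, 74.1% with TPM and 61.3% with log2(FPKM + 1). Leaving out each replicate gave 0.11 to 0.25 for ACADM, 0.015 to 0.14 for PPARA, 0 to 1 higher among the 9 genes (ACADM, without rhSema3C replicate 1), 0 to 1 lower ketone genes and 2 to 5 higher peroxisomal genes. Same-numbered samples did not deviate together (r = -0.077, -0.046 and -0.036), so the numbers were not read as a pairing, and no sample correlated best with its own number. Under the replicate block CPT1A was -0.55 and the block changed no call of a member. The causes were not tested.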

Other observations

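Of 19 genes of the related lists that lay under the filter on low genes, 3 passed in the fit without the filter, 1 higher and 2 lower with rhSema3C, and they are named after their values were seen. PPARG, the third receptor of the family, had 38, 60 and 51 counts with PBS and 151, 193 and 153 with rhSema3C, and the groups did not overlap. Its log2 fold change was 1.45 (SE 0.29, 95% CI 0.79 to 2.10, edgeR adjusted p = 0.0046). MLYCD, the decarboxylase that breaks down malonyl-CoA, had 691, 581 and 618 counts with PBS and 555, 550 and 570 with rhSema3C. Its log2 fold change was -0.43 (SE 0.11, edgeR adjusted p = 0.018), without overlap on the CPM scale. UCP3, a mitochondrial carrier, had 70, 54 and 62 counts with PBS and 33, 44 and 36 with rhSema3C, without overlap, and a log2 fold change of -0.98 (SE 0.30, edgeR adjusted p = 0.042).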
